A study of Mus musculus with 32 samples.

Results

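The 6 genes described here, Phgr1, Eprn, Tmem52, Pcdh20, Kbtbd13 and Cd164l2, were chosen by their low or zero FPKM in the lungs of mice given World Trade Center particulate matter (WTCPM) and rosoxacin. They are 6 of the 26305 genes with an Ensembl identifier in the deposited table, and all 6 are among the 2749 of these genes whose mean over the 16 mice was at least 0.1 FPKM. FPKM counts fragments per kilobase of a transcript and per 1e6 fragments mapped in that library. The values of the rosoxacin mice chose the genes, so these values are given as a description and carry no test.

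Lung RNA came from 16 male C57BL/6J mice of wild-type genotype in 4 groups of 4; the labels give an age of 6 to 8 weeks. The first group was instilled intranasally with WTCPM, dust gathered at Ground Zero, and injected intraperitoneally with rosoxacin, a quinolone antibacterial drug, at 5 mg/kg. The second was given WTCPM and dexamethasone, a synthetic glucocorticoid, by the same routes and at 0.1 mg/kg. The third was given WTCPM alone, and the fourth was an untreated, healthy control group. The labels state neither the amount of dust nor the time between exposure and harvest, and no group was given a drug without dust. Each mouse was sequenced on 2 lanes, which were averaged, so n counts mice.

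No common pathway is known for the 6 genes. Phgr1 encodes a small protein rich in proline, histidine and glycine that is known from gut epithelium. Pcdh20 is a non-clustered protocadherin, a member of the cadherin superfamily of cell surface adhesion proteins, and Cd164l2 encodes a relative of the sialomucin CD164, a heavily glycosylated membrane protein. Tmem52 encodes a transmembrane protein. Kbtbd13 encodes a protein with a BTB domain and Kelch repeats of the kind that brings substrates to Cul3 ubiquitin ligases, and mutations of the human gene cause nemaline myopathy, a disease of skeletal muscle. Eprn (ephemeron) is a long non-coding RNA described in mouse embryonic stem cells in connection with Lin28a and Nanog.

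In GENCODE M21 on mm10, the genes lie on 5 chromosomes. Phgr1 (ENSMUSG00000046804.13) spans chr2:118772769-118778165 on the plus strand, and Eprn (ENSMUSG00000113346.2), annotated as a lincRNA, spans chr13:73344665-73347384 on the minus strand. Tmem52 (ENSMUSG00000023153.9) spans chr4:155469114-155470858 and Cd164l2 (ENSMUSG00000028865.14) chr4:133212131-133224555, both on the plus strand. Pcdh20 (ENSMUSG00000050505.7) spans chr14:88464743-88471396 and Kbtbd13 (ENSMUSG00000054978.3) chr9:65388684-65391652, both on the minus strand. Kbtbd13 is a single exon of 2969 bases. Eprn has 1 transcript of 1306 bases, while Phgr1 and Pcdh20 have 2 transcripts each, Tmem52 has 5 and Cd164l2 has 6. Gpr3, a G protein-coupled receptor gene, overlaps the start of Cd164l2 on the opposite strand. Whether strand was used in counting is not stated in these sources, so reads of the overlap cannot be told apart. Gpr3 averaged 0.0595 FPKM in rosoxacin, 0.0114 in dexamethasone, 0.0537 in WTCPM and 0.0391 in control mice.

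Since the 6 genes were low in the same 4 mice, promoters are shown, taken from RefSeq on GRCm38.p6 as 250 bases before to 50 bases after the annotated start. The RefSeq table matched 5 of the 6 genes, and Tmem52 is not shown. Each sequence is written 5′ to 3′ in lower case, and capitals mark matches, on either strand, to TATAAA, found in some core promoters, to CCAAT, bound by NF-Y, to GGGCGG, bound by Sp1, or to AGAACA, a glucocorticoid receptor half-site.
Phgr1, chr2:118772524-118772823, plus strand: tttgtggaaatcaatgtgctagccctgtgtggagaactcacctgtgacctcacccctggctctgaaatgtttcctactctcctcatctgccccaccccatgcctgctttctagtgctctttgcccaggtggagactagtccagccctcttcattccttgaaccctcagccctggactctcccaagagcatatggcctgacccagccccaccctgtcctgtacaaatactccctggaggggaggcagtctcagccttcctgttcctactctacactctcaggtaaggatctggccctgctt
Eprn, chr13:73347335-73347634, minus strand: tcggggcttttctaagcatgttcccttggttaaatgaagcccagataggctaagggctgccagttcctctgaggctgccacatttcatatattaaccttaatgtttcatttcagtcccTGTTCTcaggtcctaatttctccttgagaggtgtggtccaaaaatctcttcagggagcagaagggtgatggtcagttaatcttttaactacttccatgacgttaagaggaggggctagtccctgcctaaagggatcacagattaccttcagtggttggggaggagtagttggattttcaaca
Pcdh20, chr14:88471347-88471646, minus strand: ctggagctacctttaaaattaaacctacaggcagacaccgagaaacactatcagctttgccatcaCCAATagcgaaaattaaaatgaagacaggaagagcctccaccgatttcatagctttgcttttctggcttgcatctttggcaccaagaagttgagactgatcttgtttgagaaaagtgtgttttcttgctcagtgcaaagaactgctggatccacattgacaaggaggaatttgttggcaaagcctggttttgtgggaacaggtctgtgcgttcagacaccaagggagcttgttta
Kbtbd13, chr9:65391603-65391902, minus strand: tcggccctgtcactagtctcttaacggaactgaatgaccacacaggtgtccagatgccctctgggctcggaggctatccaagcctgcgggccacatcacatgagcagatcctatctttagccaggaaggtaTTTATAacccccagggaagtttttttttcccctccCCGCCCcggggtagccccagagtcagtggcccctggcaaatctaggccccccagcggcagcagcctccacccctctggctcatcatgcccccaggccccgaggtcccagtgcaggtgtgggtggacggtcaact
Cd164l2, chr4:133220559-133220858, plus strand: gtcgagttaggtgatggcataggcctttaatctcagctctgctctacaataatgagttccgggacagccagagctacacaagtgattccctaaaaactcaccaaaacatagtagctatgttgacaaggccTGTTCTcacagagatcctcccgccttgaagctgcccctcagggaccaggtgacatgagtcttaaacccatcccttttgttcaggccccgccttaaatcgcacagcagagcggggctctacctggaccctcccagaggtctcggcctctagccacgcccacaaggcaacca
No motif was shared by all 5 promoters. Phgr1 held none of the 4 motifs. Pcdh20 held 1 match to CCAAT on the strand shown. Kbtbd13 held 1 match to TATAAA and 1 to GGGCGG, and Eprn and Cd164l2 each held 1 match to AGAACA, all on the other strand, so the capitals there show the reverse complement. No 2 matches overlapped. Among 32851 promoters of the same length, 13.6% held TATAAA, 37.4% CCAAT, 35.7% GGGCGG and 19% AGAACA. The RefSeq window of Cd164l2 lies inside the gene as GENCODE draws it. The number of CpG dinucleotides was 0 in Phgr1, 2 in Eprn, 4 in Pcdh20, 8 in Cd164l2 and 9 in Kbtbd13, against a median of 7 over all these promoters.

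Phgr1, the gut epithelial protein, was listed at 0 in all 4 rosoxacin mice and in all 8 of their libraries. It had 0.246, 0.246, 0.343 and 0.38 FPKM in the dexamethasone mice, 0.257, 0.415, 0.491 and 0.324 FPKM in the WTCPM mice and 0.182, 0.239, 0.452 and 0.0958 FPKM in the control mice. Every mouse without rosoxacin thus had a value above 0, and the rosoxacin group did not overlap any other group. The other groups overlapped each other, in the order WTCPM (0.371 ± 0.103), dexamethasone (0.304 ± 0.0684) and control (0.242 ± 0.152 FPKM, SD, n = 4 each). The single lanes were less steady than the mice: Phgr1 was also listed at 0 in 3 of 8 dexamethasone, 1 of 8 WTCPM and 2 of 8 control libraries. In WTCPM mouse 3, for example, it was 0 on one lane and 0.982 FPKM on the other.

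Tmem52, the transmembrane protein gene, was likewise listed at 0 in all 8 rosoxacin libraries. It had 0.473, 0.531, 0.32 and 0.135 FPKM in the dexamethasone mice, 0.23, 0.101, 0.259 and 0.459 FPKM in the WTCPM mice and 0.303, 0.401, 0.196 and 0.359 FPKM in the control mice. No mouse without rosoxacin was at 0, although 1 of 8 dexamethasone and 2 of 8 WTCPM libraries were. The means were 0.365 ± 0.177 in dexamethasone, 0.262 ± 0.148 in WTCPM and 0.315 ± 0.089 FPKM in control mice (SD, n = 4 each), and these 3 groups overlapped.

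Eprn, the long non-coding RNA, had 0.0372, 0, 0 and 0 FPKM in the rosoxacin mice. The single value above 0 came from 1 of 8 rosoxacin libraries, with 0.0743 FPKM. The dexamethasone mice had 0.49, 0.305, 0.509 and 0.42 FPKM, the WTCPM mice 0.41, 0.135, 0.383 and 0.45 FPKM and the control mice 0.453, 0.304, 0.288 and 0.372 FPKM. The highest rosoxacin mouse lay below the lowest other mouse, WTCPM mouse 2, in which Eprn was 0 on one lane. The mean was 0.00929 ± 0.0186 in rosoxacin, 0.431 ± 0.0925 in dexamethasone, 0.345 ± 0.143 in WTCPM and 0.354 ± 0.0754 FPKM in control mice (SD, n = 4 each). The rosoxacin mean was 2.47% of the mean of the 12 other mice.

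Pcdh20, the protocadherin, was lower and not at 0 in rosoxacin mice, which had 0.0454, 0.16, 0.216 and 0.189 FPKM. The dexamethasone mice had 0.589, 0.436, 0.475 and 0.615 FPKM, the WTCPM mice 0.452, 0.532, 0.574 and 0.719 FPKM and the control mice 0.387, 0.65, 0.501 and 0.408 FPKM. It was above 0 in all 32 libraries, and each rosoxacin mouse lay below all 12 other mice. The rosoxacin mean of 0.153 ± 0.0749 FPKM was 28.9% of the mean of the 12 others, with 0.529 ± 0.0868 in dexamethasone, 0.569 ± 0.112 in WTCPM and 0.487 ± 0.12 FPKM in control mice (SD, n = 4 each). On the log2(FPKM + 0.1) scale the rosoxacin group differed by -1.37 from dexamethasone, -1.45 from WTCPM and -1.25 from control mice, each with an SE of 0.25.

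Kbtbd13, the Kelch and BTB adaptor, was likewise lower and above 0, with 0.151, 0.138, 0.174 and 0.219 FPKM in the rosoxacin mice. The dexamethasone mice had 0.503, 0.414, 0.599 and 0.259 FPKM, the WTCPM mice 0.376, 0.629, 0.477 and 0.617 FPKM and the control mice 0.552, 0.505, 0.45 and 0.364 FPKM. No library was at 0, and the gap between the groups was narrow, 0.219 FPKM in the highest rosoxacin mouse against 0.259 FPKM in the lowest dexamethasone mouse. The rosoxacin mean of 0.171 ± 0.0354 FPKM was 35.7% of the mean of the 12 others, with 0.444 ± 0.145 in dexamethasone, 0.525 ± 0.121 in WTCPM and 0.468 ± 0.0804 FPKM in control mice (SD, n = 4 each). The log2(FPKM + 0.1) differences of the rosoxacin group were -0.97 from dexamethasone, -1.19 from WTCPM and -1.07 from control mice, each with an SE of 0.23. These sizes depend on the pseudocount: for rosoxacin against WTCPM mice, Pcdh20 differed by -1.99 with a pseudocount of 0.01 and -0.44 with 1.

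Cd164l2, the sialomucin relative, was listed at 0 in all 8 rosoxacin libraries and stood apart from the other 5 genes in the WTCPM mice. It had 0.433, 0, 0.32 and 0.249 FPKM in the dexamethasone mice, 0, 0.155, 0.103 and 0 FPKM in the WTCPM mice and 0.45, 0.23, 0.334 and 0.361 FPKM in the control mice. The rosoxacin mice lay below all 4 control mice, and tied at 0 with 1 dexamethasone mouse and 2 WTCPM mice. Of 8 libraries a group, 3 dexamethasone, 6 WTCPM and 3 control libraries were at 0. The means were 0.251 ± 0.183 in dexamethasone, 0.0645 ± 0.0774 in WTCPM and 0.344 ± 0.0907 FPKM in control mice (SD, n = 4 each).

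**Figure D1:**
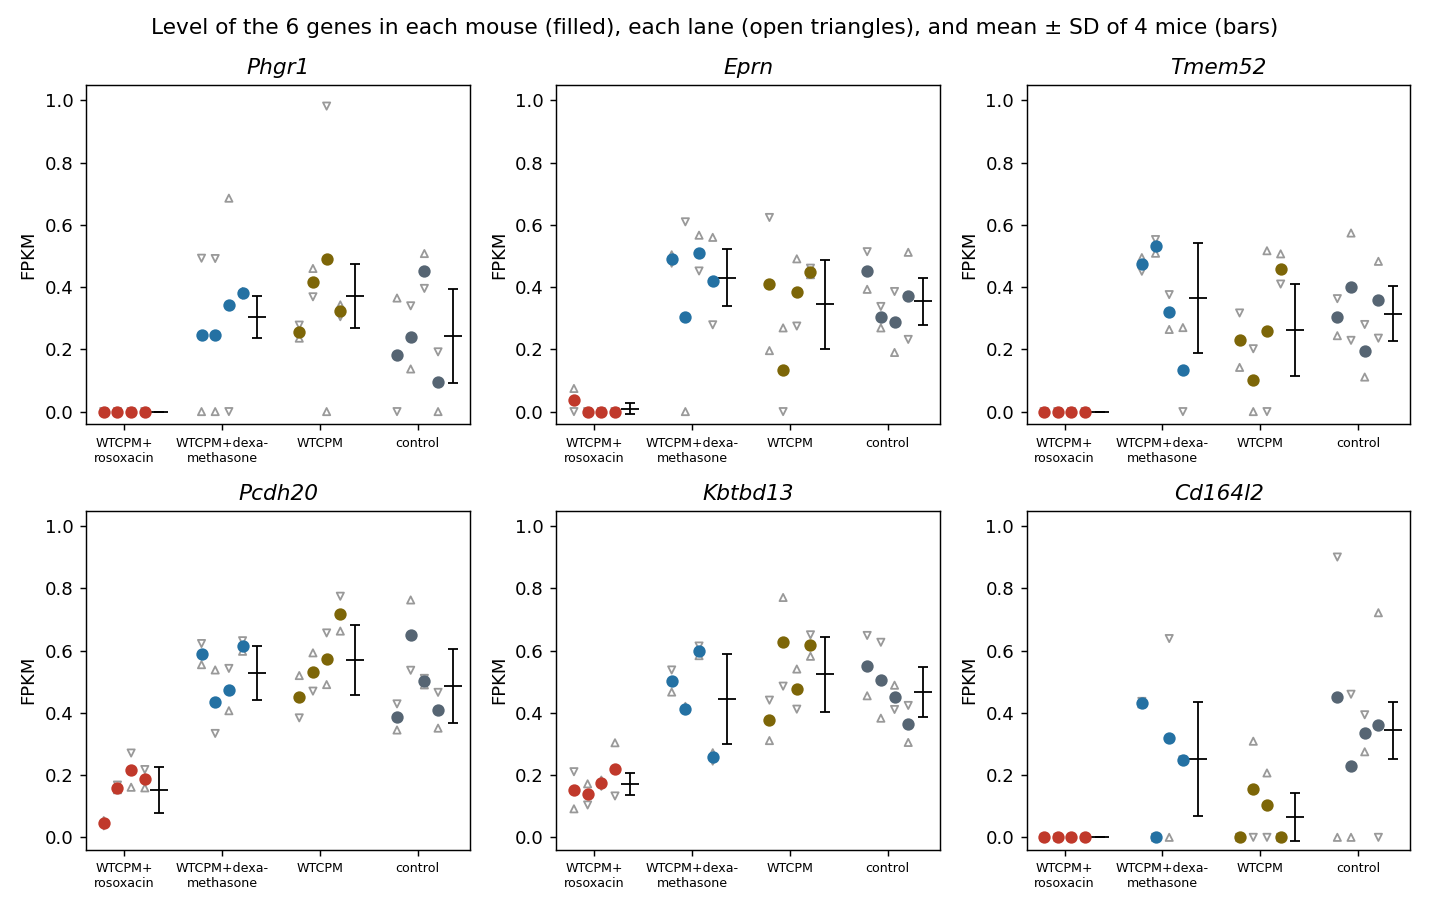
FPKM of each of the 6 genes (vertical axis) in the 4 groups (horizontal axis), with a filled point per mouse, open triangles for its lanes and the mean ± SD of 4 mice at the right of each group. Phgr1, Tmem52 and Cd164l2 are at 0 in every rosoxacin mouse, Eprn is at 0 in 3 of 4, and Pcdh20 and Kbtbd13 stay above 0.

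The 6 genes together summed to 0.234, 0.299, 0.39 and 0.407 FPKM in the rosoxacin mice, against between 1.73 and 2.73 FPKM in each of the 12 other mice. For Phgr1, Tmem52, Eprn and Cd164l2 the levels are close to what a few fragments per library give, while Pcdh20 and Kbtbd13 rest on more. Read totals are not stated in these sources, but the files allow an estimate. In the 19407 annotated genes with 1 transcript, FPKM multiplied by the transcript length in kilobases clustered at 1 value per library, between 0.0711 and 0.115, which was taken as the worth of 1 fragment. Values within 2% of it were 4.78 to 11.4 times as frequent as values within 2% of 0.75 of it. A similar cluster lies at 0.5 of that value, so the estimate is not the authors' number and rests on this reading. In units of 1e6 fragments, the implied depth per library was 9.15 to 10.4 in rosoxacin, 8.71 to 13.5 in dexamethasone, 9.37 to 10.9 in WTCPM and 9.64 to 14.1 in control mice. The rosoxacin range thus lay within the dexamethasone range and overlapped those of the other 2 groups. Control mice 1 to 3 (11.7 to 14.1) and dexamethasone mice 1 and 3 (12.8 to 13.5) were deeper than every rosoxacin library. So was WTCPM mouse 4 (10.8 and 10.9). The worth of 1 fragment was looked for between 0.07 and 0.14 only, and control mouse 3, at 0.0711 and 0.0715, lay near the lower end. What depth adds to the zeros was not tested.

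On this scale, Eprn rested on an estimated 1.01 fragments over the 8 rosoxacin libraries, against 52 over the dexamethasone, 36.1 over the WTCPM and 44.7 over the control libraries. Kbtbd13 rested on 39.8 fragments in the rosoxacin libraries, against 123 in dexamethasone, 126 in WTCPM and 138 in control libraries. For Phgr1 the estimate was 0 in rosoxacin libraries, against 14.8 in dexamethasone, 16 in WTCPM and 13.7 in control libraries, about 1.71 to 2.01 per library with the longer of its 2 transcripts. For Tmem52, with transcripts of 622 to 968 bases, it was 0 in rosoxacin libraries, against 20.4 to 31.7 in dexamethasone, 13.2 to 20.6 in WTCPM and 19 to 29.5 in control libraries. For Pcdh20, with transcripts of 3362 to 5241 bases, it was 39.6 to 61.7 in rosoxacin libraries, against 160 to 249 in dexamethasone, 154 to 240 in WTCPM and 164 to 256 in control libraries. For Cd164l2, with transcripts of 241 to 986 bases, it was 0 in rosoxacin libraries, against 5.93 to 24.3 in dexamethasone, 1.21 to 4.96 in WTCPM and 8.02 to 32.8 in control libraries. Of 24 libraries outside rosoxacin mice, Phgr1 was at 0 in 6, Eprn in 2, Tmem52 in 3 and Cd164l2 in 12. With zeros in other groups too, the 3 genes at 0 in rosoxacin mice are described as not detected and not as absent. In bulk lung RNA, fewer cells of a type and less RNA per cell cannot be told apart.

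**Figure D2:**
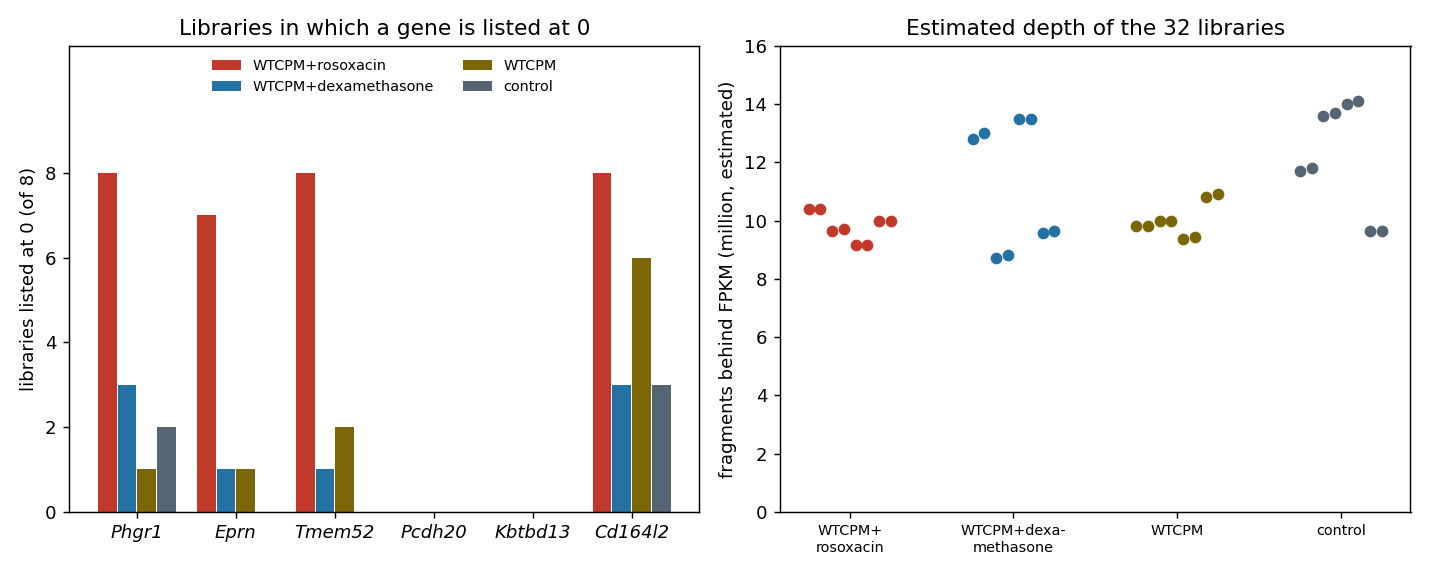
Left, number of libraries out of 8 in which each of the 6 genes is listed at 0 (vertical axis), by group. Right, estimated fragments per library, in units of 1e6 (vertical axis) for the 8 libraries of each group. Phgr1, Tmem52 and Cd164l2 are at 0 in 8 of 8 rosoxacin libraries and Eprn in 7. The rosoxacin libraries have 9.15 to 10.4 in that unit, within the dexamethasone range. Each other group holds libraries deeper than all of them, and what depth adds to the zeros was not tested.

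Phgr1, Eprn, Tmem52, Pcdh20 and Kbtbd13, 5 of the 6, had all rosoxacin mice below all 12 other mice, a pattern found in 76 of the 2749 annotated genes (2.76%). The opposite pattern, all rosoxacin mice above the 12 others, was found in 14 of the 2749. Of the 76 genes, 55 are annotated as processed pseudogenes and 10 as protein-coding. Among the 2699 tested genes that matched GENCODE, 836 are protein-coding, and their processed pseudogenes were not counted. Set against the 4 mice of 1 other group at a time, the same 5 genes lay below the dexamethasone mice (background 9.68%) and below the WTCPM mice (8.95%), and all 6 lay below the control mice (9.02%). Since the choice of the genes fixed these directions, nothing is read from the counts. The median difference of all 2749 genes between rosoxacin and WTCPM mice was -0.16 on the log2(FPKM + 0.1) scale. It was -0.01 with median-of-ratios scaling and -0.46 after rescaling each mouse to 1 total, and 5 of the 6 genes lay below the 12 others on each of these scales. From single lanes the separation was narrower, with Pcdh20 alone below all 12 other mice on lane 1, and Pcdh20 and Kbtbd13 on lane 2. The share of all genes, 2.76%, was counted with lanes averaged and without rescaling. It is not given for the other scales or for single lanes, so nothing is read from those counts.

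A gene listed at 0 in all 4 mice of a group was itself uncommon. This held for 23 of the 2749 genes in rosoxacin mice (0.837%), against 10 in dexamethasone (0.364%), 11 in WTCPM (0.4%) and 10 in control mice (0.364%). Of all values of single libraries, 17.5% were 0 in rosoxacin, against 14.3% in dexamethasone, 14.9% in WTCPM and 13.7% in control mice. Phgr1 and Tmem52 were the 2 genes of the 23 that were above 0 in every one of the 12 other mice, and no gene had that pattern in favour of another group. Phgr1, Tmem52 and Cd164l2 were chosen by their low or zero rosoxacin values, so nothing is read from their place in these counts of zeros. Among genes with a mean of at least 0.2 FPKM in the 12 mice of the other groups, 12 were at 0 in all rosoxacin mice, 4 in all dexamethasone, 5 in all WTCPM and 2 in all control mice. The 12 are Phgr1, Tmem52, Cd164l2, the predicted gene Gm47814 and 8 variable segments of antigen receptors, such as Trbv3 and Ighv2-3.

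Other genes stood close to the 6 by the ratio of the rosoxacin mean to the mean of the 12 others. Among 737 annotated genes with a symbol of their own, 9 averaged 0 FPKM in the rosoxacin mice. Besides Phgr1, Tmem52 and Cd164l2 these were Il2, a T cell cytokine, Ppy, a pancreatic hormone, Hbq1a, a globin, and Spag11b, Adtrp and Got1l1. Each of these 6 was also at 0 in at least 1 of the 12 other mice, and their means over the 12 ran between 0.135 FPKM (Got1l1) and 0.2 FPKM (Il2). In all, 29 of the 737 had a ratio at or below that of Kbtbd13, and 23 of these are not among the 6, such as Gltpd2 at 8.69% and Pspn at 8.94%. Otc, a urea cycle enzyme, came next after Kbtbd13, with 0.0551 FPKM in rosoxacin mice, which is 36.2% of its 0.152 FPKM in the others. Spin2c and Shisa2 were the other 2 of the 737 with all rosoxacin mice below the 12 others, at 48.4% and 60.4% of the other mice.

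In the limma fit over the 2749 genes, 12 genes passed as lower in rosoxacin than in WTCPM mice at an adjusted p of 0.05 (0.437%), and 3 as higher. The 12 were Phgr1, Eprn, Tmem52, Pcdh20 and Kbtbd13 with 7 predicted genes, of which 6 are processed pseudogenes and Gm17508 is a lincRNA. The rosoxacin values behind this contrast entered the choice of the 6 genes, so nothing is read from their calls. Cd164l2 was not among the 12, with a difference of -0.59 (SE 0.44), and WTCPM mice had little of it. Median-of-ratios scaling gave 6 lower and 4 higher, and rescaling to 1 total gave 267 lower and 3 higher. The number lower was 2 without WTCPM mouse 4, 4 without WTCPM mouse 2, 5 without rosoxacin mouse 1, 7 without WTCPM mouse 3 and 19 without control mouse 1 or rosoxacin mouse 4. It was 3 with the library number as a covariate and 0 on lane 1 alone. With a filter of 0.25 FPKM it was 35 of 1172 genes, and with assembled loci included 5044 of 27230 loci or genes. Gm42511 was at 0 FPKM in rosoxacin mice, 0.0344 ± 0.0611 in dexamethasone, 0.353 ± 0.141 in WTCPM and 0.0141 ± 0.0283 FPKM in control mice (SD, n = 4 each), so it was high in WTCPM mice alone. Gm17508 was also highest in WTCPM mice, at 0.467 ± 0.0837 FPKM, and was not confined to them. It had 0.0548 ± 0.0749 in rosoxacin, 0.111 ± 0.0752 in dexamethasone and 0.179 ± 0.125 FPKM in control mice. The call was lost in 20 of 27 alternatives for Gm17508 and in 6 of 27 for Gm42511. The other 5, Gm42933, Gm8101, Gm17954, Gm10923 and Gm5575, kept between 0.122 and 0.502 FPKM in rosoxacin mice. Reads of processed pseudogenes can be shared with their parent genes, so their values are uncertain.

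Whether the 6 genes differed with the dust or with dexamethasone could be tested in comparisons whose means hold no rosoxacin mouse. The fit takes its error from all 4 groups, and the rosoxacin mice, with an SD of 0 for Phgr1, Tmem52 and Cd164l2, narrow the intervals of these 3 genes. The intervals were therefore also taken with the rosoxacin mice left out of the fit. The WTCPM mice did enter the choice as a group set against rosoxacin, so dexamethasone against control is the comparison furthest from it. None of the 6 genes passed in any of the 3 comparisons. WTCPM against control called 0 of 2749 genes (0%), with 141 at an unadjusted p under 0.05. Dexamethasone with WTCPM against WTCPM called 0 (0%), with 148, and dexamethasone with WTCPM against control called 1 (0.0364%), with 137. That gene, Asprv1, was named after its value was seen. It averaged 0.644 ± 0.131 FPKM in dexamethasone and 0.179 ± 0.0362 FPKM in control mice (SD, n = 4 each), with a log2 difference of 1.41 (SE 0.23, limma adjusted p = 0.0247). The call was lost without 6 of the 8 compared mice and in 6 of 14 other alternatives, among them median-of-ratios scaling and the replicate block, with adjusted p between 0.0096 and 0.992 over all of them.

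Cd164l2 had the largest difference of the 6 genes between WTCPM and control mice. It differed by -1.53 on the log2(FPKM + 0.1) scale (SE 0.44, 95% interval -2.47 to -0.60), with an unadjusted limma p of 0.00298 and an adjusted p of 0.356. Over the alternatives its adjusted p lay between 0.132 and 0.97, and it was 0.575 with the rosoxacin mice left out of the fit (SE 0.48, 95% interval -2.57 to -0.50). Between dexamethasone and WTCPM mice, Cd164l2 differed by 0.98 (SE 0.44, 95% interval 0.045 to 1.91, limma adjusted p = 0.866), and with the rosoxacin mice left out the interval held 0 (-0.057 to 2.01). The dexamethasone and control mice differed by -0.55 (95% interval -1.49 to 0.38, adjusted p = 0.997).

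The other 5 genes had smaller differences in these comparisons. Phgr1 differed by 0.54 between WTCPM and control mice (95% interval -0.049 to 1.13, limma adjusted p = 0.894) and by 0.33 between dexamethasone and control mice (95% interval -0.26 to 0.91, adjusted p = 0.997). Eprn differed by 0.22 between dexamethasone and control mice (95% interval -0.34 to 0.78), Tmem52 by 0.094 (-0.60 to 0.79), Pcdh20 by 0.11 (-0.41 to 0.63) and Kbtbd13 by -0.093 (-0.57 to 0.39). With the rosoxacin mice left out, the interval between dexamethasone and control mice was -0.31 to 0.97 for Phgr1 and -0.67 to 0.86 for Tmem52. These intervals bound what 4 mice a group could show, and a missed threshold does not show equal levels. The median difference of the 6 genes was 0.02 for WTCPM against control, 0.11 for dexamethasone against WTCPM and 0.10 for dexamethasone against control, beside 0.03, 0.00 and 0.02 over all 2749 genes.

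**Figure D3:**
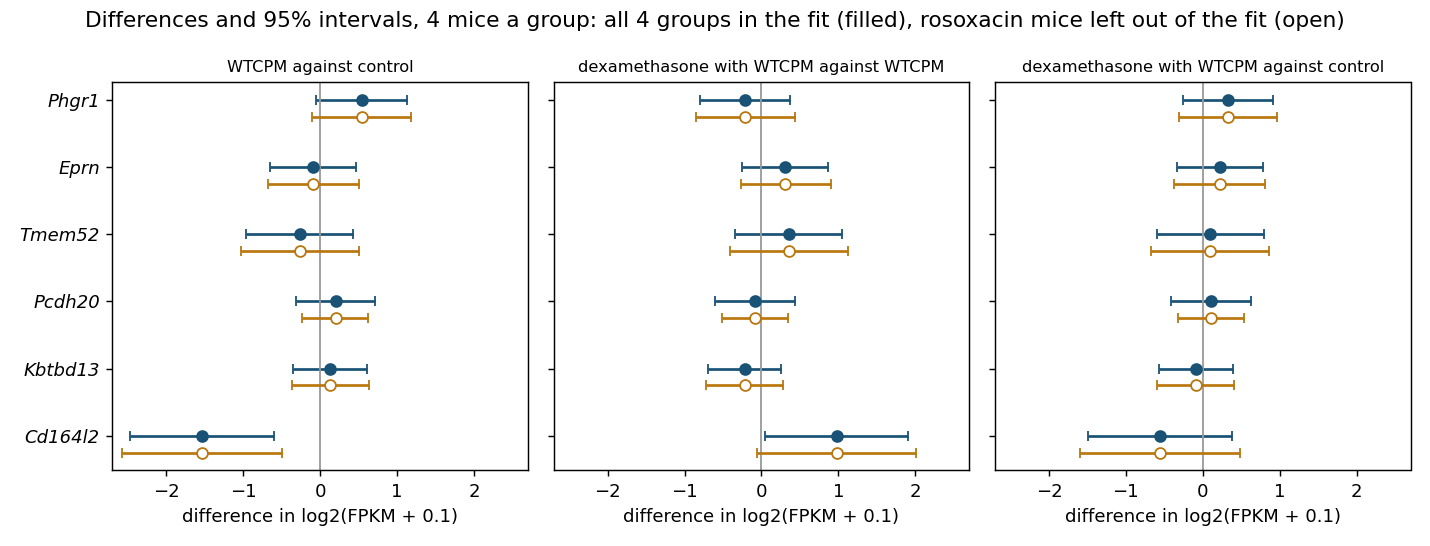
Differences in log2(FPKM + 0.1) (horizontal axis) for the 6 genes (vertical axis) between groups other than rosoxacin, with 95% limma intervals and 4 mice a group; filled points take the error from all 4 groups, open points from the 12 mice without rosoxacin. The Cd164l2 interval for WTCPM against control lies below 0 in both, and that for dexamethasone with WTCPM against WTCPM reaches from 0.045 to 1.91 with all 4 groups and from -0.057 to 2.01 without rosoxacin mice.

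The library names in the labels carry a number after the letter S, called the library number here. What it stands for is not stated, so it is not known to mark a batch. The rosoxacin mice hold numbers 1 to 4. The dexamethasone mice hold numbers between 9 and 22, the WTCPM mice between 5 and 17 and the control mice between 7 and 23. Rosoxacin and the lowest library numbers therefore cannot be told apart. Within the 12 other mice, with the group in the model, all 6 genes had a positive slope per library number. Their median was 0.024, beside -0.0067 over all 2749 genes. The share of the 2749 genes with a positive slope is not given, so nothing is read from this count. In some alternatives the sign turned for each of the 6 except Kbtbd13. Of the 2749 genes, 0 passed (0%), the 6 included. An unadjusted limma p under 0.05 was found for 441 of them, against 137 to 148 in the 3 group comparisons without rosoxacin. With the assembled loci of the table included, 3000 of 27230 loci or genes passed, none of the 6 among them. The steepest slope was that of Kbtbd13, 0.038 on the log2 scale per number (95% interval 0.0059 to 0.071, limma adjusted p = 0.258), and the flattest that of Eprn, 0.00072 (-0.047 to 0.048). Once library number was added to the model, the log2 difference of rosoxacin from WTCPM mice was -0.88 for Kbtbd13 (SE 0.24), -1.39 for Pcdh20 (SE 0.30) and -1.96 for Eprn (SE 0.32), and for Cd164l2 it was -0.36 (SE 0.54). The difference of Kbtbd13 was then -0.44 from dexamethasone mice (SE 0.30), against -0.97 without the covariate, and -0.55 from control mice (SE 0.29), against -1.07. The covariate had no values of the other groups below number 5 to rest on.

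**Figure D4:**
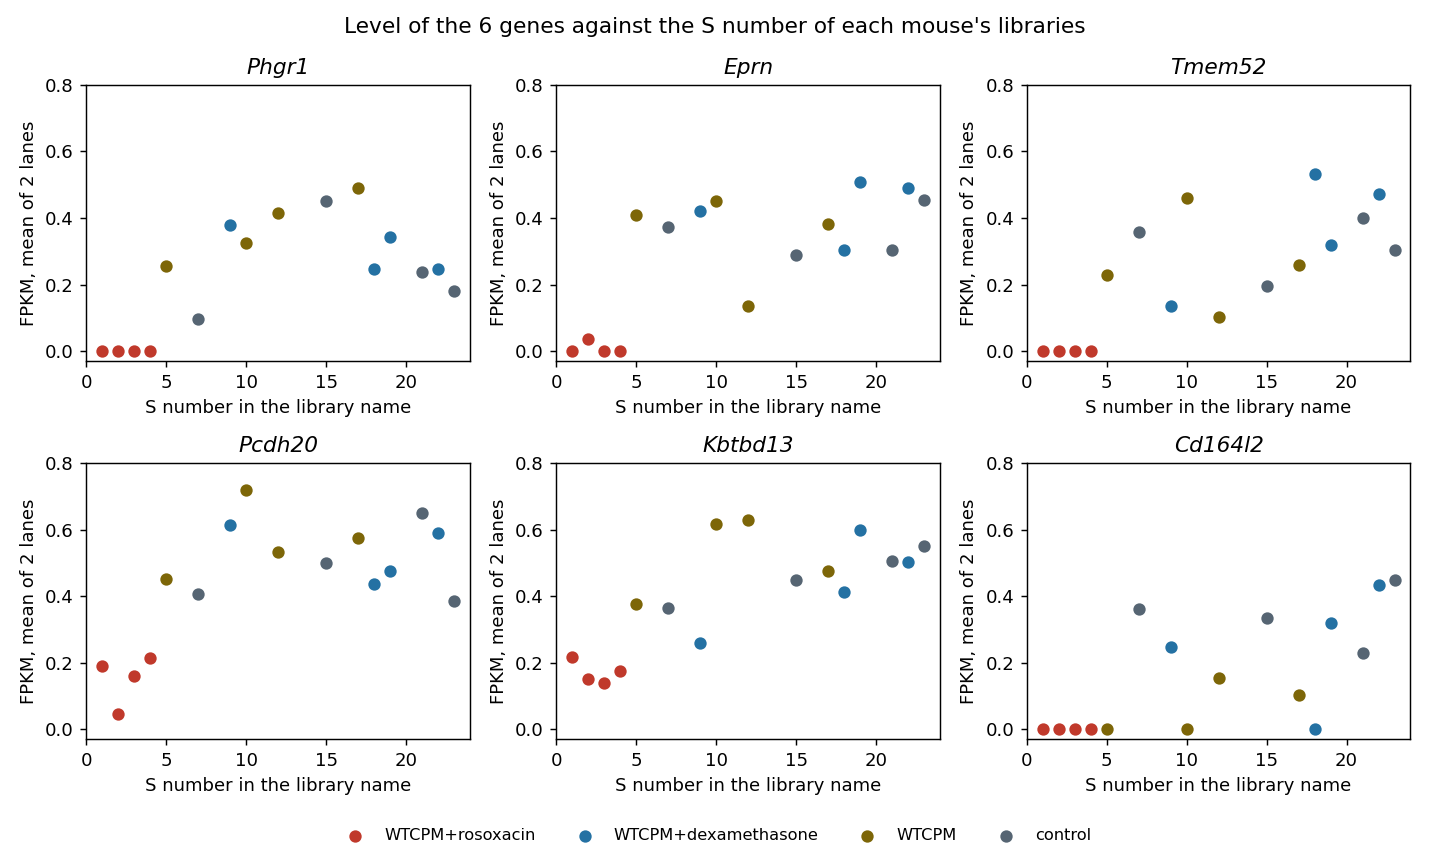
FPKM of each of the 6 genes (vertical axis, mean of 2 lanes) against the number after S in the names of its libraries (horizontal axis), coloured by group. The rosoxacin mice occupy numbers 1 to 4 and no other group has a number below 5. WTCPM mouse 1, at number 5, had 0.257 FPKM of Phgr1, 0.41 of Eprn and 0 of Cd164l2.

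Over 16 mice, the 15 pairs of genes had Pearson r between 0.49 and 0.91 (median 0.80) on the log2(FPKM + 0.1) scale, which the choice of the genes fixes. Over the 12 mice without rosoxacin, r lay between -0.51 and 0.49 (median 0.01), and 8 of 15 were positive. The 5 other genes most like the mean profile of the 6 over 16 mice were Tpbg (r = 0.83), Shisa2 (0.81), Hs3st3a1 (0.79), Cd209b (0.79) and Phf11a (0.77). Over the 12 mice their r was 0.77 for Tpbg, -0.07 for Shisa2, 0.29 for Hs3st3a1, 0.57 for Cd209b and -0.27 for Phf11a. These are descriptions over mice that share lanes and processing. Tpbg, a trophoblast glycoprotein of the cell surface, averaged 0.453 ± 0.102 in rosoxacin, 0.774 ± 0.203 in dexamethasone, 0.698 ± 0.114 in WTCPM and 0.651 ± 0.0383 FPKM in control mice (SD, n = 4 each).

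Few relatives of the 6 genes could be read. Of 47 genes listed as Kelch and BTB adaptors beside Kbtbd13, 11 have an identifier of their own in the table and 8 were tested, and none passed in any comparison, those with rosoxacin included. Klhl33 averaged 0.36 ± 0.11 in rosoxacin, 0.484 ± 0.134 in dexamethasone, 0.658 ± 0.119 in WTCPM and 0.465 ± 0.153 FPKM in control mice, and Kbtbd6 averaged 0.338 ± 0.0651 in rosoxacin, 0.518 ± 0.128 in dexamethasone, 0.416 ± 0.177 in WTCPM and 0.605 ± 0.184 FPKM in control mice (SD, n = 4 each). Lmod3, a thin filament gene that is likewise mutated in human nemaline myopathy, averaged 0.198 ± 0.104 in rosoxacin, 0.129 ± 0.0863 in dexamethasone, 0.238 ± 0.103 in WTCPM and 0.0582 ± 0.116 FPKM in control mice (SD, n = 4 each) and passed in no comparison. Among 4 non-clustered protocadherins with an identifier, the highest, Pcdh11x, averaged 0.123 in rosoxacin, 0.0922 in dexamethasone, 0.0751 in WTCPM and 0.106 FPKM in control mice. Tmem52b, the paralogue of Tmem52, had a mean of 0.0174 FPKM over all mice, and the higher of 2 sialomucins, Glycam1, had 0.0206 FPKM.

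Genes of the settings in which Phgr1 and Eprn are best known could be read only where they kept an identifier, and no annotated gene of the table averaged above 4.05 FPKM. Of 18 intestinal epithelial genes, 13 have an identifier, 6 of these, Cdx2, Tff3, Guca2a, Guca2b, Apoa4 and Lypd8, were at 0 in every mouse, and the highest, Slc26a3, averaged 0.0564 FPKM over the 16 mice. The 13 genes summed to 0.164 to 0.416 FPKM in rosoxacin mice, against 0 to 0.078 in dexamethasone, 0.0296 to 0.123 in WTCPM and 0.0798 to 0.263 FPKM in control mice. The rosoxacin mice thus lay above all dexamethasone and WTCPM mice in this sum and overlapped the control mice. How often sums of other genes do so was not counted. Slc26a3 averaged 0.091 ± 0.112 in rosoxacin, 0.0152 in dexamethasone, 0.0329 in WTCPM and 0.0867 FPKM in control mice. Fabp2 averaged 0.0452 ± 0.0591 in rosoxacin and 0.00815 FPKM in control mice. Cdh17 was lowest in rosoxacin mice, at 0.0121 FPKM, against 0.015 in dexamethasone, 0.0214 in WTCPM and 0.0542 FPKM in control mice. Cdx1 was at 0 in rosoxacin mice. Muc2, a gut mucin, averaged 0.0979 ± 0.0254 in rosoxacin, 0.0159 ± 0.0319 in dexamethasone, 0 in WTCPM and 0.0158 ± 0.0316 FPKM in control mice (SD, n = 4 each). None of the 13 reached the level to be tested, and Muc2, Fabp2, Cdh17 and Cdx1 were named after their values were seen. Of 18 genes of pluripotency and the Lin28 pathway, 12 have an identifier. Tdgf1, a growth factor co-receptor, was the one tested, with 0.241 ± 0.139 in rosoxacin, 0.469 ± 0.0689 in dexamethasone, 0.407 ± 0.202 in WTCPM and 0.429 ± 0.0912 FPKM in control mice (SD, n = 4 each), and it passed in no comparison. Lin28a averaged 0.00185 FPKM and Nanog 0.0428 FPKM over all mice.

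Of 48 marker genes of 15 cell types, 5 have an identifier of their own and 2 were tested. None of the alveolar, airway, endothelial, fibroblast or macrophage markers is among the 5, so the tissue could not be checked with them here. The other 3 averaged 0.0144 (Ly6g), 0.0229 (Myh2) and 0.0257 FPKM (Cdh17) over all mice. Cxcr2, a neutrophil receptor, averaged 0.854 ± 0.349 in rosoxacin, 1.13 ± 0.344 in dexamethasone, 0.516 ± 0.107 in WTCPM and 0.531 ± 0.255 FPKM in control mice, and Lep, an adipocyte hormone, averaged 0.176 ± 0.104 in rosoxacin, 0.125 ± 0.0697 in dexamethasone, 0.0118 ± 0.0235 in WTCPM and 0.438 ± 0.378 FPKM in control mice (SD, n = 4 each). Neither passed in any comparison, and the part of other cell types in the levels of the 6 genes was not tested.

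Of the 12 genes that flank the 6 on their chromosomes, 3 have an identifier in the table. Ubap1l, the neighbour of Kbtbd13 at 8307 bases, averaged 0.562 FPKM in rosoxacin, 0.263 in dexamethasone, 0.325 in WTCPM and 0.316 FPKM in control mice. It was the 1 flanking gene that reached the level to be tested, and its spread and test are not given here. Its mean was highest in the group in which Kbtbd13 was lowest. Kbtbd13 was chosen by its values in that group, so nothing is read from this. The lincRNA genes Gm33203 and Gm41225 on either side of Pcdh20 were at 0 in all groups. The other 9 flanking genes are not analysed here.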

How the data were processed

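Lung RNA-seq of 16 mice, 2 lanes each (32 libraries), was deposited by the authors as FPKM for 186512 transcripts. The submitters' processing notes name StringTie 2.1.5, HISAT2 2.2.1, HISAT, SAMtools 1.12, FastQC and R 4.0.4, with the build mm10; which annotation and settings were used is not stated in these sources. Transcripts were summed per identifier and lanes averaged per mouse. Annotated genes hold 0.114% of all FPKM, and the rest lies in 28335 assembled loci without gene names, so a gene counts here only where it kept its own identifier. The FPKM total of a mouse was 924277 to 1329954 in rosoxacin, 763725 to 861652 in dexamethasone, 742168 to 803130 in WTCPM and 704683 to 1099603 in control mice.

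Linear models with trend (limma 3.58.1, R 4.3.3) were fitted to log2(FPKM + 0.1) of the 2749 annotated genes that averaged 0.1 FPKM or more, with all 4 groups in 1 fit, Benjamini-Hochberg adjustment over all of them and a threshold of 0.05. This scale understates the change of low genes. The procedure was tested on simulated data. Symbols and positions came from GENCODE M21, which matched 25036 of 26305 identifiers with their version.

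The members and gene lists were chosen with earlier results of these data known. Named besides the members were genes passing as lower in rosoxacin than WTCPM mice, the 5 genes most like the mean profile (a symbol of their own, no predicted genes), up to 2 genes per list with the highest mean, and annotated neighbours. Genes near the 6 by ratio and in counts of zeros were named after their values were seen. Alternatives were other pseudocounts (1, 0.01), filters, scalings (TPM, median-of-ratios, quantile), lanes, groups in the fit, the library number, a replicate block and each mouse left out. Leaving the rosoxacin mice out of the fit was added after the data were seen. Figures were drawn with matplotlib 3.10.9.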

Additional observations from a re-analysis of the deposited data

Results flagged for a closer look

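Among 21 sets of 4 mice with a range above 0 (the 6 genes in the 4 groups), 1 held a mouse far from the others. Eprn was 0.0372 FPKM in rosoxacin mouse 1 and 0 in the other 3 rosoxacin mice, so the gap equals the whole range. The value comes from 1 lane and an estimated 1.01 fragments. Any set of 3 mice at 0 and 1 mouse above 0 is flagged in this way, and the genes were chosen for low or zero values in this group. Nothing is read from the flag, and no explanation was weighed.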

How the results depend on the processing

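No member passed the threshold in any tested comparison under any of the 666 recomputed values, and the lowest adjusted p was 0.0946 (limma, Kbtbd13, library number slope, quantile normalisation). The number of genes called for WTCPM against control, 0, became 10 with assembled loci included, 2 with no filter and with a pseudocount of 0.01, 1 with a pseudocount of 1, on lane 1 alone and with a replicate block, and 0 to 1 with a mouse left out. For dexamethasone with WTCPM against WTCPM it became 1 with a pseudocount of 1. For dexamethasone against control, 1 became 2 with assembled loci, on lane 2, with no filter, with a pseudocount of 0.01 and rescaled to TPM, 0 on lane 1, with median-of-ratios or quantile scaling, with the 2 compared groups only and with the replicate block, and 0 to 3 with a mouse left out. The slope count, 0, became 3000 of 27230 with assembled loci, 11 with no group terms, 5 with quantile normalisation and 0 to 2 with a mouse left out. Members with all rosoxacin mice below the 12 others numbered 1 on lane 1 and 2 on lane 2, against 5 with lanes averaged. The share of all 2749 genes was 2.76% with lanes averaged and is not given for single lanes.

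Single genes changed the sign of small, uncalled log2 differences. Lane 1 alone gave -0.20 for Phgr1, -0.071 for Eprn and 0.059 for Kbtbd13 in dexamethasone against control, 0.028 for Eprn in WTCPM against control, -0.098 for Eprn in dexamethasone against WTCPM, and slopes of -0.02 (Phgr1), -0.005 (Eprn) and -0.069 (Cd164l2). Lane 2 alone gave -0.045 for Tmem52 in dexamethasone against control, -0.064 for Kbtbd13 in WTCPM against control and a slope of -0.0055 for Phgr1. Quantile normalisation gave 0.017 for Pcdh20 in dexamethasone against WTCPM and -0.0038 for Kbtbd13 in WTCPM against control; rescaling to TPM gave slopes of -0.013 (Eprn) and -0.0082 (Pcdh20), and leaving out the group terms -0.00064 (Pcdh20). With a mouse left out, Eprn in WTCPM against control ran between -0.22 and 0.19, Pcdh20 in dexamethasone against WTCPM between -0.17 and 0.016, and Tmem52 (-0.085 to 0.39) and Kbtbd13 (-0.23 to 0.092) in dexamethasone against control crossed 0, as did the slopes of Phgr1 (-0.013 to 0.039), Eprn (-0.0089 to 0.0088), Tmem52 (-0.0016 to 0.056) and Pcdh20 (-0.0027 to 0.016). The cause was not tested.

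Genes called between rosoxacin and WTCPM mice numbered 15, against 0 on lane 1 alone and 5690 of 27230 with assembled loci included (646 higher, 5044 lower). Deviations of mice with the same replicate number correlated between -0.156 and 0.304 (median 0.027). Those of mice with other numbers correlated between -0.195 and 0.162 (median 0.003). The replicate block joins mice by this number alone. That block changed no call on the 6 genes in the comparisons without rosoxacin. Phgr1, Tmem52, Eprn and Cd164l2 each have libraries at 0 outside rosoxacin mice, and Pcdh20 and Kbtbd13 have none. What depth adds to these zeros was not tested.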
